A study of Mus musculus with 4 samples.

Results

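The Id and SMAD pathway genes are 7 mouse genes, Id1, Id2, Id3, Smad3, Skil, Tgfbi and Tgfb1, described here by every probe set whose single symbol in the platform annotation is one of them. The rule found 8 probe sets of 13057 in all, 6 on the first array type and 2 on the second array type, which the sample titles mark MB. They belong to 6 of the 6137 genes named on the arrays, because no probe set carries the symbol Tgfb1 in that annotation, and Tgfb1 was not analysed here. The cells were a stable line of NIH3T3, an immortalised mouse embryo fibroblast line, in which wild-type PKR is expressed from a promoter that tetracycline silences. In the withdrawn condition tetracycline was removed for 5 h to induce PKR, the double-stranded RNA sensor kinase that restrains translation by phosphorylating eIF2 alpha. In the tetracycline condition the same line was kept in 1 µg/ml tetracycline with 5% serum. The serum content is stated only for the tetracycline cultures, and the species of the PKR transgene is not stated. Both conditions share the line, and the labels do not say whether it is 1 clone or whether 1 RNA was used for both arrays of a condition. There is 1 array per condition and type, so the 4 arrays hold no replicates, and no p-value was computed.

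As background, ligands of the TGF-beta superfamily bind pairs of type I and type II receptor kinases. TGF-beta and activin receptors phosphorylate Smad2 and Smad3, whereas BMP receptors phosphorylate Smad1, Smad5 and Smad9, and both kinds of SMAD enter the nucleus with Smad4. The Id genes encode helix-loop-helix proteins without a DNA-binding basic region, which bind E proteins and keep them from DNA, and they are classic direct outputs of BMP signalling that also respond to serum. Skil encodes SnoN, a corepressor of SMAD complexes that is induced by TGF-beta and feeds back on it. Tgfbi encodes a secreted matrix protein first found as a TGF-beta-induced transcript in an epithelial tumour line, and Tgfb1 encodes the ligand itself. The comparison asks how these genes differed when tetracycline was withdrawn to induce PKR, and whether BMP and TGF-beta outputs moved alike.

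The start-site regions of 3 members are shown because these genes stand for the outputs compared, Id2 and Id3 for BMP and Tgfbi for TGF-beta. They are the RefSeq windows of GRCm38.p6 from 250 bases before to 50 bases after the gene start, read along each gene's own strand. Capitals mark the SMAD box CAGAC, or GTCTG on the opposite strand, and the GC-rich SMAD element GGCGCC, which reads the same on both strands.
Id2, chr12:25096043-25096342, minus strand: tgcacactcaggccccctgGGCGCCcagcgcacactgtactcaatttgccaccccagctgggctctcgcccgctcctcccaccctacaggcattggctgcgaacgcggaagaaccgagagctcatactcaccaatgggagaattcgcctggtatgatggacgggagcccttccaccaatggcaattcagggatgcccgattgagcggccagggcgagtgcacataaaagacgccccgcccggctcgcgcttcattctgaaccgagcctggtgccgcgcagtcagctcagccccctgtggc
Id3, chr4:136143572-136143871, plus strand: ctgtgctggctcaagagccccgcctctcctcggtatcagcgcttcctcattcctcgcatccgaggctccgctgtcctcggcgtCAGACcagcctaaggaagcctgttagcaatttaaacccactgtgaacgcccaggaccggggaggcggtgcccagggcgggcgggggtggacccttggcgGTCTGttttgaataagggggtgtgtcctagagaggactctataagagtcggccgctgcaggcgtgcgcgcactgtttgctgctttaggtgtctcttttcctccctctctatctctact
Tgfbi, chr13:56609336-56609635, plus strand: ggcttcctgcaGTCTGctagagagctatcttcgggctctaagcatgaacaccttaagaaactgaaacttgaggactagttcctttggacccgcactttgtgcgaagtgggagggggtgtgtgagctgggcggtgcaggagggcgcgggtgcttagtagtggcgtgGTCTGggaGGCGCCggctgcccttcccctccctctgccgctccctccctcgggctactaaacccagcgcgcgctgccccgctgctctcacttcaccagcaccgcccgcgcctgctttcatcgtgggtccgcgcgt
The Id3 window held 2 SMAD boxes and no GC-rich element, the Id2 window held 1 GC-rich element and no SMAD box, and the Tgfbi window held 2 SMAD boxes and 1 GC-rich element. The windows of Smad3 and Tgfb1 held 0 of either, so each motif was in 2 of the 5 member windows. Of 32851 such windows in the table, 49.6% held a SMAD box and 11.9% held the GC-rich element, so the SMAD box is common and the GC-rich element less so. That element is all G and C. The 5 member windows were 60.0% to 77.0% G and C, beside a median of 52.7% over all windows. The palindrome GTCTAGAC was in 0.213% of windows and in none of the 5 members with a window, these 3 with Smad3 and Tgfb1. A match is only a description of the letters, and no binding was measured.

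A pair of floors is used for every value. The main floor is the 25th percentile of all intensities of a type, 129.7 for the first and 80.0 for MB, and a probe set above it on both arrays is called measured. The control floor, 281.5 for the first type and 340.4 for MB, is the 95th percentile of control probe sets against bacterial and yeast transcripts. A change is given as log2 of the ratio of the withdrawn to the tetracycline intensity. The spread given beside a change is a robust SD over the changes of 200 neighbours, the probe sets nearest in level on the same arrays, which is not a replicate error. On the 4 arrays 74.0% to 76.0% of probe sets were above the main floor and 47.0% to 61.7% above the control floor. Of 15 fibroblast markers with a probe set, 13 were above the control floor on both arrays, against 3 of 10 macrophage and leukocyte markers, 2 of 8 lymphocyte markers, 2 of 7 epithelial markers, 1 of 6 endothelial markers, 3 of 9 muscle markers and 2 of 4 adipocyte markers. The only Eif2ak2 probe set, for the mouse PKR gene, read 663.6 in withdrawn cells and 643.3 with tetracycline, and may not detect the transgene.

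The 5 probe sets of Id1, Id2 and Id3 were brighter in withdrawn cells than with tetracycline, and the size of the difference depended on the probe set. The single Id4 probe set, which is no member, was not brighter, and over all measured genes 49.6% were higher to any extent. The 3 that stood above the control floor on both arrays were each less than 2-fold higher. The other 2, of Id1 and Id2 on the first type, stood below it with tetracycline and have only bounds against it, at least 2.07-fold and at least 1.54-fold higher. With tetracycline these 2 read 150.8 and 118.9, where the MB probe sets of the same source records read 5687.2 and 1724.5. Whether the dim probe sets report the Id transcripts was not tested.

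Id3 (probe set M60523_s_at) had the clearest difference of the family. It read 7935.7 in withdrawn cells and 4395.1 with tetracycline, far above both floors on both arrays. This is 1.81-fold higher, a log2 change of 0.85 beside a spread of 0.28, and only 3 of the 200 probe sets nearest in level were at least as much higher.

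Id1, the family member most used as a readout of BMP signalling, has a probe set on each array type. On the MB type it read 7951.9 in withdrawn cells and 5687.2 with tetracycline, a log2 change of 0.48 beside a spread of 0.29. Of its 200 neighbours in level, 10 were at least as much higher. On the first type (m31885_rc_at) Id1 read 581.8 in withdrawn cells and 150.8 with tetracycline, a log2 change of 1.95 beside a spread of 0.82. The tetracycline value lies just above the main floor and below the control floor. Against the control floor the first-type probe set was at least 2.07-fold brighter in withdrawn cells, a bound for that probe set and not for the gene. The annotation gives both Id1 probe sets 1 source sequence record. The bound of the first-type probe set against the control floor, 2.07-fold, is above the 1.40-fold of the MB probe set. Among 241 genes measured on both array types the median difference between types was 0.35 on the log2 scale. Id1 differed by 1.46 between types, and 9.5% of those genes differed at least as much. Only 56.8% of them had the same direction on both types.

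The 2 probe sets of Id2 also differed in size. The MB probe set read 2046.3 in withdrawn cells and 1724.5 with tetracycline, a log2 change of 0.25, which is inside the spread of 0.35, and 53 of 200 neighbours were at least as much higher. On the first type (M69293_rc_at) it read 432.8 in withdrawn cells and 118.9 with tetracycline, below the main floor. Against the main floor the first-type probe set was therefore at least 3.34-fold brighter in withdrawn cells than with tetracycline. Against the control floor it was at least 1.54-fold brighter. These bounds hold for that probe set and not for the gene, since the MB probe set was 1.19-fold higher. The fourth family member, Id4, read 256.9 in withdrawn cells and 304.3 with tetracycline, below the control floor on both arrays, with a change of -0.24 beside a spread of 0.98.

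**Figure D1:**
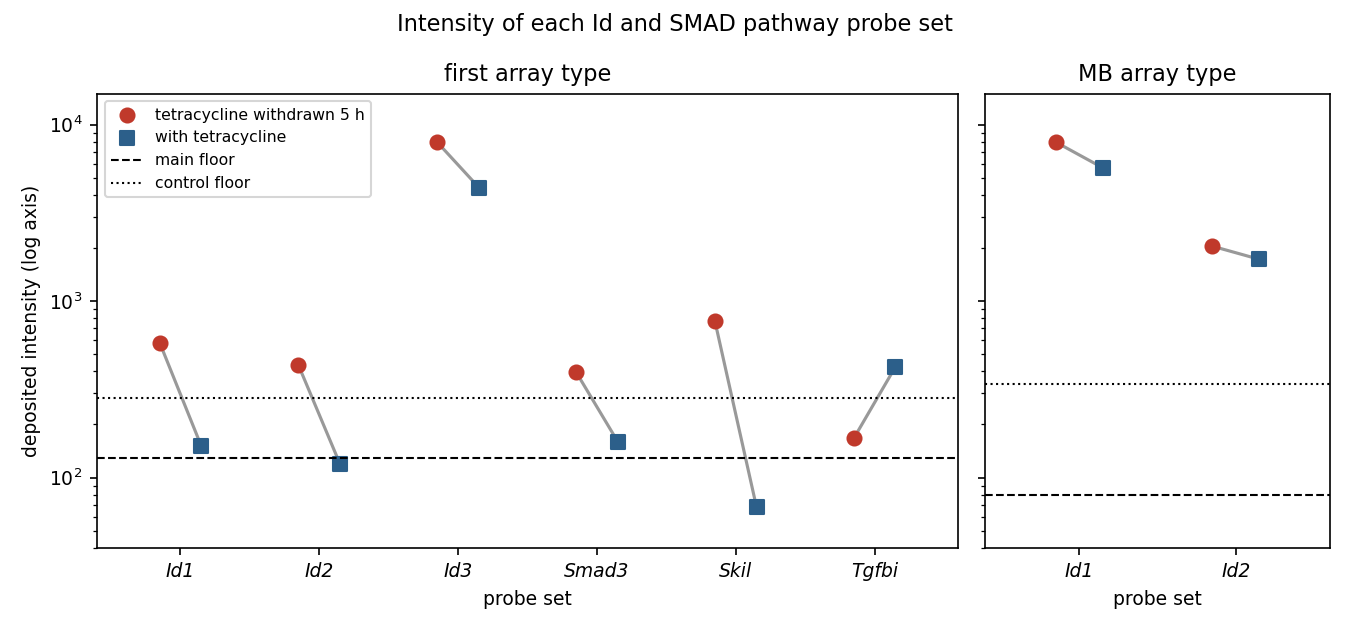
Deposited intensity (log axis) of each member probe set in withdrawn cells (circles) and with tetracycline (squares), 1 array per condition and type, with the main floor dashed and the control floor dotted. Id3 on the first type and Id1 and Id2 on the MB type lie above both floors on both arrays, and every other line crosses the control floor.

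Among the SMAD pathway members, Smad3 and Skil were brighter in withdrawn cells. Smad3, the signal carrier of TGF-beta and activin, read 395.7 in withdrawn cells and 159.7 with tetracycline (AF016189_at). The change of 2.48-fold, or 1.31 on the log2 scale, stands beside a spread of 1.03, and 26 of 200 neighbours were at least as much higher. Against the control floor Smad3 was at least 1.41-fold higher.

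Skil, the SnoN gene, had the widest gap of the 8 probe sets. It read 767.7 in withdrawn cells and 67.7 with tetracycline (u10530_s_at), so it was above both floors in withdrawn cells and below both with tetracycline. The bound is at least 5.92-fold higher against the main floor and at least 2.73-fold higher against the control floor. Of the 200 probe sets nearest in level, 19.0% were higher by 2-fold or more. Skil has 1 probe set, so no second measurement of it is at hand.

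Tgfbi was the only member lower in withdrawn cells. It read 166.9 in withdrawn cells and 424.5 with tetracycline (L19932_s_at), 2.54-fold lower, a log2 change of -1.35 beside a spread of 0.98. Of its neighbours 16 of 200 were at least as much lower. The withdrawn value is below the control floor, and against that floor Tgfbi was at least 1.51-fold lower. Skil and Tgfbi, both listed as TGF-beta targets, thus had opposite directions on the same pair of arrays.

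**Figure D2:**
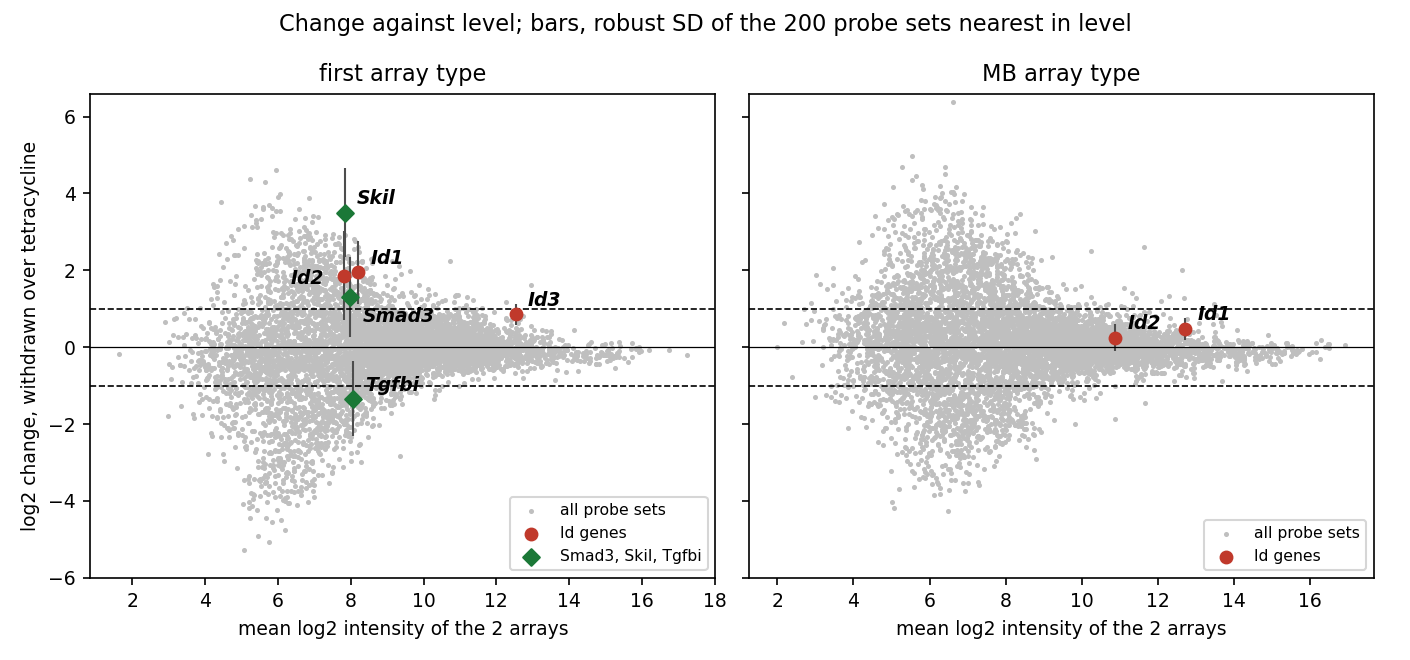
Log2 change (withdrawn over tetracycline) against mean log2 intensity for all probe sets of each array type (grey), with Id probe sets as circles, Smad3, Skil and Tgfbi as diamonds, bars of 1 spread either way and dashed lines at 2-fold. The cloud is wide at the level of Skil, Id1, Id2, Smad3 and Tgfbi on the first type, and Id3 sits near the upper edge of a narrow part of it.

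On the first type, 4 of the 6 member probe sets were measured, of which 2 (Id1 and Smad3) were at least 2-fold higher and 1 (Tgfbi) at least 2-fold lower. Over all measured probe sets of that type, 4.36% were 2-fold higher and 4.02% 2-fold lower. Another 2 members, Id2 and Skil, were above the main floor only in withdrawn cells with a bound of at least 2-fold. Such upward bounds were found for 15.8% of the 980 probe sets above that floor on 1 array. That base includes probe sets above it only with tetracycline, which cannot have an upward bound. The share among those above it only in withdrawn cells is therefore higher. On the MB type 0 of 2 measured members reached 2-fold in either direction, where 8.46% of all measured probe sets were higher and 6.65% lower. With the control floor in place of the main floor, 3 members were left (Id1 and Id2 on the MB type, Id3 on the first) and none reached 2-fold, where 1.88% of all such probe sets of the first type were 2-fold higher and 1.29% lower, and 1.97% and 0.767% of those of the MB type. At the level of Id1 and Smad3 on the first type, 14.5% and 16.0% of the 200 nearest probe sets were 2-fold higher, so calls at that level were frequent.

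The remaining pathway genes were taken from lists by role, with a gene's change as the median over its measured probe sets. Over all 4507 measured genes 5.26% were at least 2-fold higher, 4.22% at least 2-fold lower, and 49.6% higher to any extent. Of 4 measured SMAD genes, 3 were higher and Smad3 alone reached 2-fold. Smad1, a carrier of BMP signals, read 1442.7 in withdrawn cells and 860.6 with tetracycline, a log2 change of 0.75 beside a spread of 0.40, with 12 of 200 neighbours at least as much higher. Both probe sets of the shared partner Smad4 were higher, with changes of 0.57 and 0.38 beside spreads of 0.42 and 0.34. Smad2, the other TGF-beta carrier, read 1074.8 in withdrawn cells and 1123.0 with tetracycline, a change of -0.06. Smad5 was below the main floor on both arrays.

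Of 9 measured ligand genes 4 were higher and 5 lower, none by 2-fold. Tgfb3 read 686.9 in withdrawn cells and 813.0 with tetracycline, a change of -0.24 beside a spread of 0.46. The probe sets of Tgfb2 and Bmp4 were below the main floor on both arrays. Bmp6, picked after its values were seen, read 46.2 in withdrawn cells and 521.5 with tetracycline, at least 1.53-fold lower against the control floor and at least 6.52-fold against the main floor. Probe sets of Bmp2, Bmp5, Bmp8a, Nodal and Lefty1 were likewise above the main floor only with tetracycline. The Inhbb probe set was above it only in withdrawn cells (251.5, and 47.8 with tetracycline). Inhba, the activin A subunit gene, had a change of 0.21 beside a spread of 0.37.

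Of 10 measured latency and antagonist genes, 5 were higher and 5 lower. The BMP antagonist noggin, Nog, was the only one past 2-fold, with 531.0 in withdrawn cells and 101.2 with tetracycline, a change of 2.39 beside a spread of 1.30. Its tetracycline value is below the control floor, against which Nog was at least 1.56-fold higher. The activin antagonist follistatin, Fst, read 375.8 in withdrawn cells and 660.5 with tetracycline, a change of -0.81 beside a spread of 0.49. Both probe sets of Bmp1, a procollagen protease and not a TGF-beta ligand, were higher, with changes of 0.93 and 0.38 beside spreads of 0.36 and 0.34.

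Of 7 measured receptor genes 5 were higher and none reached 2-fold. The coreceptor endoglin, Eng, read 1756.0 in withdrawn cells and 1071.0 with tetracycline, a change of 0.71 beside a spread of 0.37. The BMP receptor Bmpr1a had a change of -0.44 beside a spread of 0.57, and the TGF-beta receptor Tgfbr2, below the control floor on both arrays, one of -0.10. The probe sets of Tgfbr1 and Bmpr1b were above the main floor only with tetracycline. Tgfbr1 read 9.1 in withdrawn cells and 149.4 with tetracycline, and Bmpr1b 19.5 and 192.3, all below the control floor.

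Of 21 measured SMAD cofactors and regulators, 10 were higher and 11 lower, with 1 gene past 2-fold upward and 2 downward. Mecom, which encodes a SMAD3-binding repressor, was higher (1.24 beside a spread of 1.03, below the control floor with tetracycline). Sin3a, the scaffold of a histone deacetylase complex, read 397.7 in withdrawn cells and 921.4 with tetracycline, a change of -1.21 beside a spread of 0.49, above the control floor on both arrays. Tob1, an antiproliferative protein that binds BMP SMADs, was lower on both probe sets (-1.60 and -0.49), neither of which cleared the control floor on both arrays. The 2 probe sets of Ski, the closest relative of Skil, disagreed in sign (0.19 and -0.51). Tgif1, a SMAD corepressor gene that TGF-beta also induces, read 3179.4 in withdrawn cells and 2067.3 with tetracycline, a change of 0.62 beside a spread of 0.30. Among the E proteins that Id proteins bind, Tcf3 had a change of -0.44 beside a spread of 0.36, Tcf4 one of 0.22 and Tcf12 one of 0.33, all above the control floor.

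**Figure D3:**
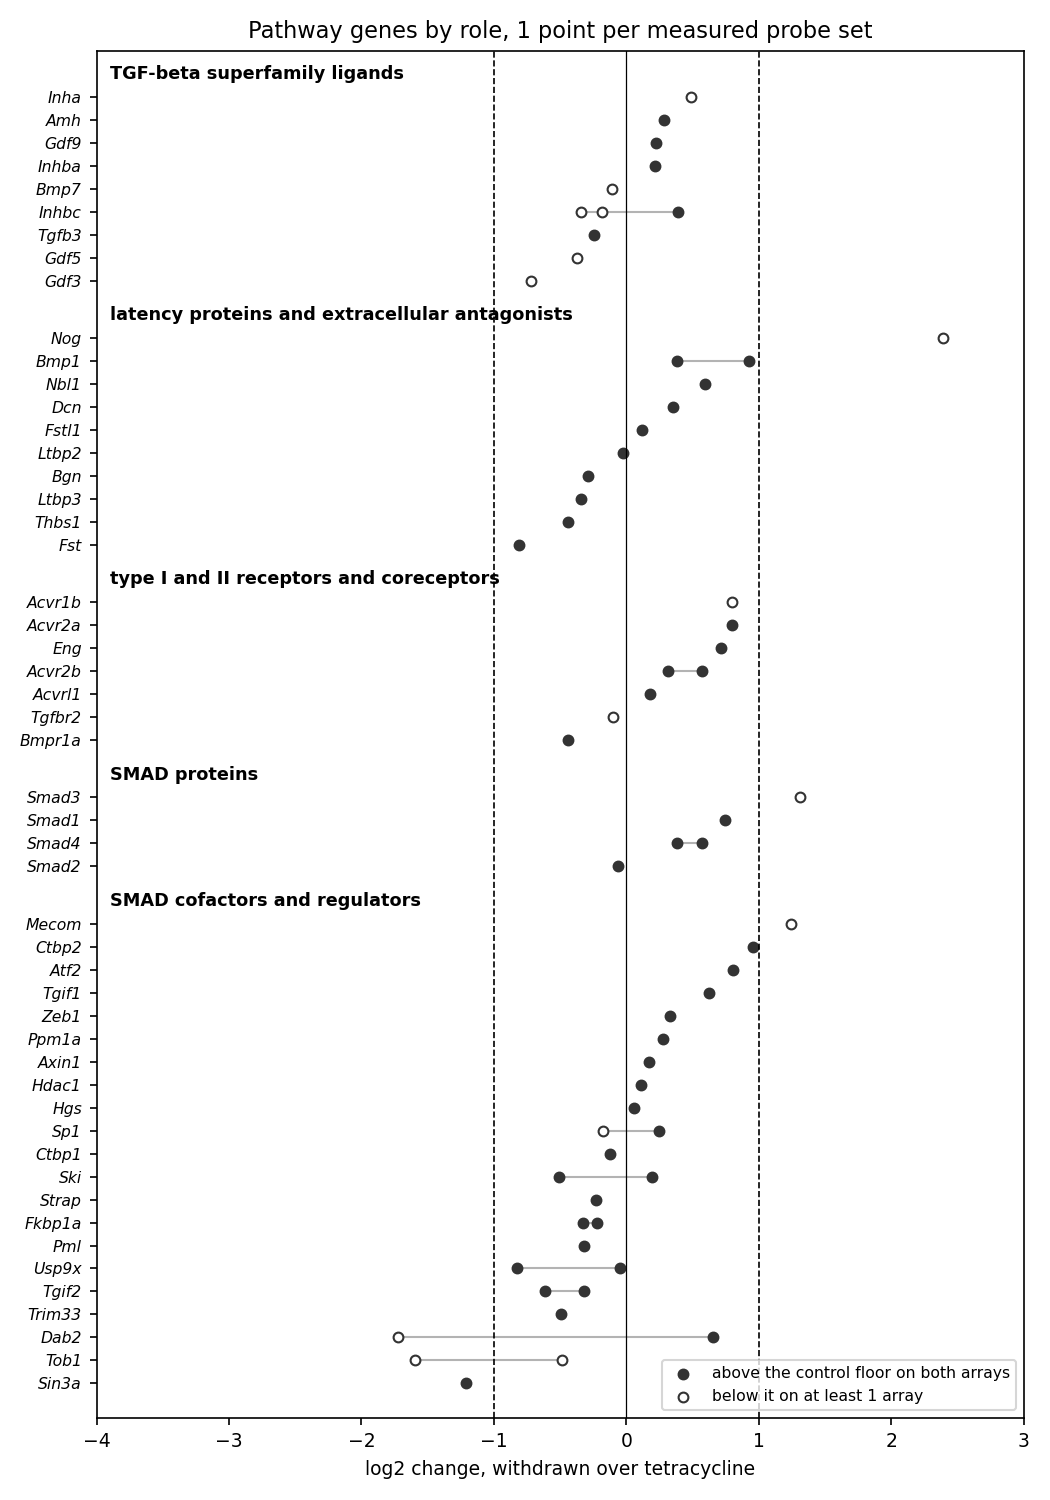
Log2 change (withdrawn over tetracycline) of each measured probe set of the pathway genes, grouped by role, with filled points above the control floor on both arrays, open points for the others, and dashed lines at 2-fold. Of the 6 genes with a point past 2-fold, Nog, Smad3, Mecom, Dab2, Tob1 and Sin3a, only Sin3a has a filled one.

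The BMP and TGF-beta target lists had medians of 0.25 and -0.02 on the log2 scale. Of 15 measured BMP targets 9 were higher, 3 of them by 2-fold and none lower by 2-fold. Those 3 were Nog, Junb, a subunit of AP-1 that is on both lists, and Id1. Nog was below the control floor with tetracycline, and Id1 passed through its first-type probe set, also below that floor with tetracycline, whereas its MB probe set was 1.40-fold higher. At the control floor only Junb reached 2-fold, among 9 measured BMP targets. Id1, Id2 and Id3 are themselves on this list, and without them 6 of 12 genes were higher and the median was -0.0043, beside -0.0037 over all measured genes. Outside the Id family, both probe sets of the GATA factor Gata2 were higher (1.14 and 0.56 beside spreads of 0.44 and 0.66), and the homeobox genes Dlx5 (-0.94) and Dlx3 (-0.66) were lower, with spreads of 0.57 and 0.74.

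Of 38 measured TGF-beta targets 18 were higher and 20 lower, 4 higher by 2-fold and 1, Tgfbi, lower by 2-fold, with a median of -0.02 that turned positive with quantile normalization (0.02), the median ratio (0.01) and the level trend removed (0.03). The 4 were Klf10, an early TGF-beta-induced transcription factor (2.51), Gadd45b, a stress regulator (2.02), the anchoring collagen gene Col7a1 (1.71, below the control floor with tetracycline) and Junb (1.52). The widely used TGF-beta reporters of the matricellular CCN family had little difference. Ccn2, the connective tissue growth factor gene, read 9630.1 in withdrawn cells and 9771.9 with tetracycline, a change of -0.02 beside a spread of 0.27. Ccn1 read 2924.1 in withdrawn cells and 2762.0 with tetracycline, a change of 0.08 beside a spread of 0.33.

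The TGF-beta list was divided by kind of product after its values were seen. Of 19 measured matrix and contractile genes 16 were lower and 3 higher, with a median of -0.25. Of 10 measured nuclear and signalling regulators 8 were higher and 2 lower, with a median of 0.46. The other 9 measured targets, which include the metalloproteinases Mmp13 (0.73), Mmp9 (0.61) and Mmp2 (-0.16), the integrins and secreted factors, were higher in 7 and lower in 2, with a median of 0.11. Mmp13 was below the control floor with tetracycline and Mmp9 on both arrays. Examples of the matrix and contractile kind are Timp1, a metalloproteinase inhibitor, which read 29387.9 in withdrawn cells and 39761.4 with tetracycline (-0.44), and the smooth muscle actin gene Acta2, which read 28038.9 in withdrawn cells and 37840.4 with tetracycline (-0.43). Their spread was 0.18, and the 200 probe sets nearest in level had a median change of -0.11, so bright probe sets as a whole were lower. Fibronectin, Fn1, was slightly higher on both its probe sets (0.08 and 0.07). With the level trend removed, 14 of the 19 matrix and contractile genes were lower, with a median of -0.20, and the median of the 10 regulators was 0.45. With quantile normalization the same 14 to 5 split gave a matrix and contractile median of -0.15, and the regulators a median of 0.44.

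**Figure D4:**
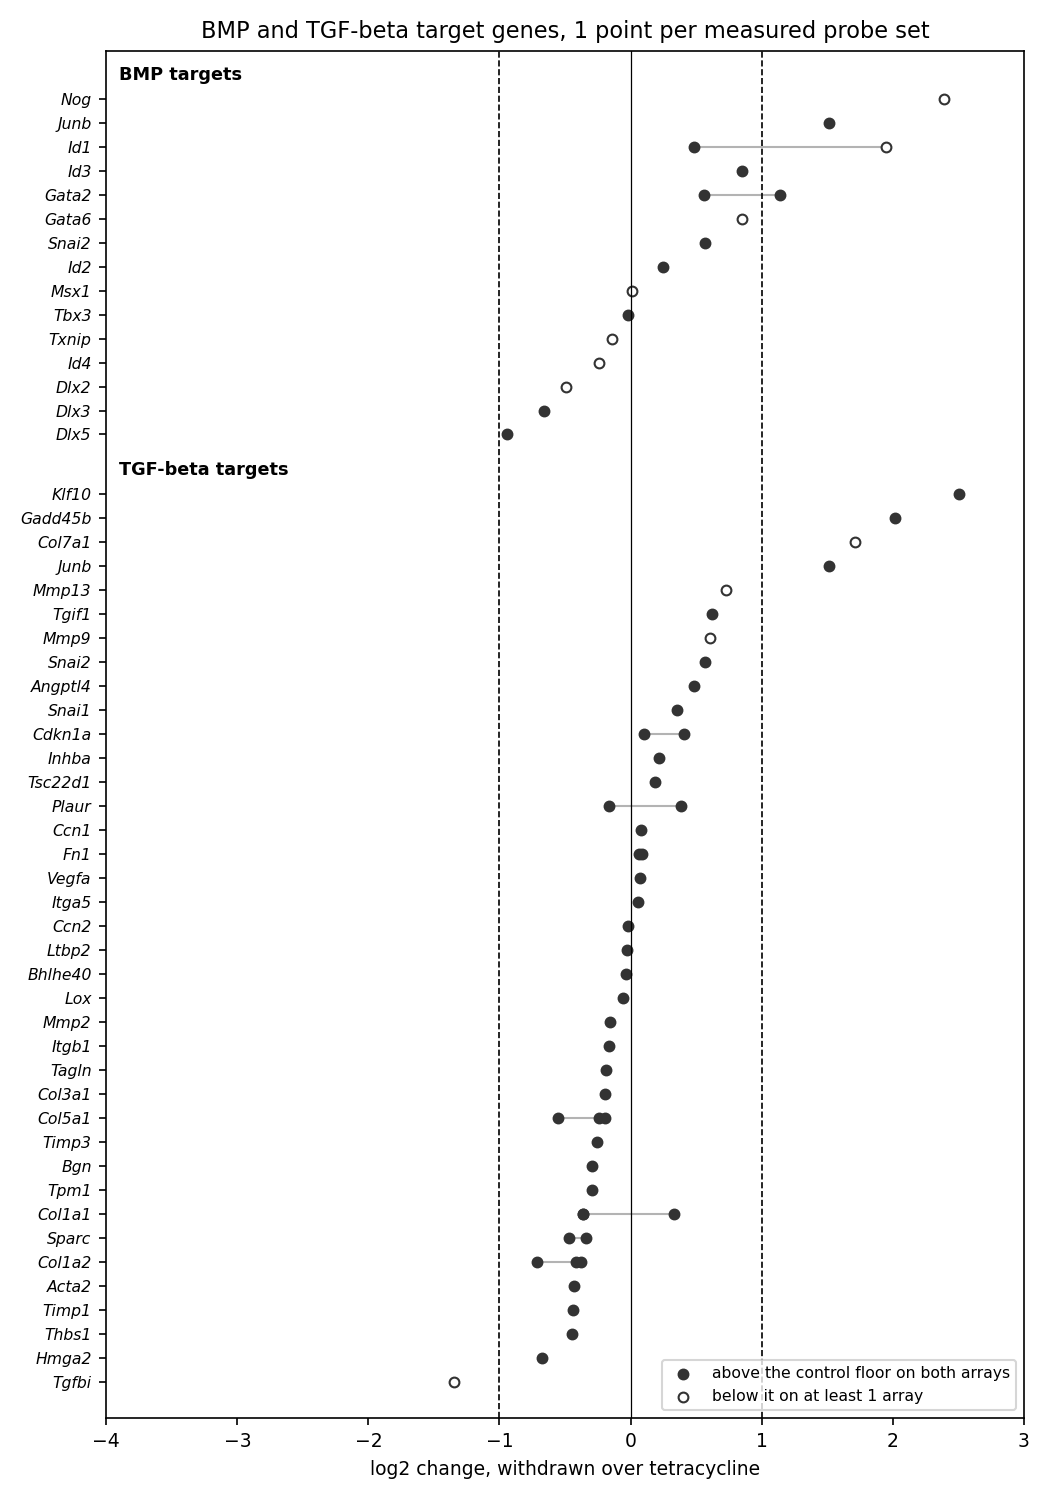
Log2 change (withdrawn over tetracycline) of each measured probe set of the BMP and TGF-beta target lists, ordered by the gene's median, with filled points above the control floor on both arrays and open points for the others. Klf10, Gadd45b, Junb and 1 of 2 Gata2 probe sets are past 2-fold with filled points, and most collagen and contractile genes lie between 0 and -1.

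BMP outputs among the members, Id1, Id2 and Id3, were all higher, with Id3 as the best measured. The MB probe set of Id2 stayed inside its spread (0.25 beside 0.35), and the BMP list without these genes had a median of -0.0043. The TGF-beta outputs among the members, Skil and Tgfbi, had both directions. Skil was below the control floor with tetracycline, and Tgfbi in withdrawn cells. The difference between the lists was not tested, since each rests on the same 4 arrays. Genes that serum induces were mostly higher, as the Id probe sets were: of 35 measured immediate early genes 29 were higher, 8 of them by 2-fold and none lower by 2-fold, with a median of 0.58. They include Klf10 and Junb, and Egr1, which read 3665.0 in withdrawn cells and 1475.5 with tetracycline (1.31 beside a spread of 0.36). The part of serum in the Id values was not tested.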

How the data were processed

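Each deposited value is the linear intensity of a probe set on an array; the software and the steps by which the authors made it are not given in the sources used. The 2% trimmed means of the arrays of a type were 998.7 and 998.3 on the first type and 995.2 and 994.3 on the MB type, so no further scaling was applied to the deposited intensities. Affymetrix and yeast controls (61 per type) were left out, which left 6523 and 6534 probe sets. Gene symbols came from the platform annotation and were updated through Entrez identifiers to RefSeq of GRCm38.p6. Of the probe sets, 5541 and 2001 had 1 symbol. The 197 and 27 with several symbols, and the 785 and 4506 with none, were not named.

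The authors' intensities were compared as log2 of withdrawn over tetracycline without a pseudocount, and counted at 2-fold between values above the main floor. A bound sets the brighter intensity over the floor. The members, lists and tests were chosen with earlier results of these data known. Named are all member probe sets, up to 6 genes per list past 2-fold and the genes that a sentence on a role needs. With 1 array per condition and type no gene of similar pattern could be ranked. The number of arrays limits the precision. The counting was tested on simulated data, with effects planted only in probe sets well above the main floor. That test does not cover the lower levels of Id1, Smad3 and Tgfbi on the first type, where the member calls were made. Python 3.11.15, numpy 2.4.6, pandas 2.3.3, statsmodels 0.14.6 and matplotlib 3.10.9 were used.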

Additional observations from a re-analysis of the deposited data

How the results depend on the processing

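No paired analysis was possible because each condition has 1 array of each type. Under the 4 scalings (2% trimmed mean, quantile, median ratio, level trend removed) every member probe set kept its direction and its side of 2-fold. Id3 ranged from 0.85 to 0.90, Id1 from 0.43 to 0.55 on the MB type and from 1.95 to 2.02 on the first, and Tgfbi from -1.35 to -1.28. A floor cannot alter a member's change, so floors were applied to counts and list medians only. Of 130 values recomputed under the alternatives, 99 stayed within the tolerance and 31 moved. The tolerance was 1.5 times for a count, 1 spread for a member's change, and a robust standard error over the genes for a list median. The scalings shifted member changes by far less than their spreads, 0.28 to 1.17, so those values could hardly move. The 2% trimmed means were near equal before scaling, so that setting could alter little. The tally is therefore no measure of robustness.

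The floor and the fold limit decided the counts. Members higher by 2-fold were 2 at the main floor, 4 with 0.5 times that floor or none, 0 with 2 times that floor or the control floor, and 1 at a 3-fold limit, and members lower by 2-fold were 1 or, with the last 3 settings, 0. BMP targets higher by 2-fold were 3, against 6 with 0.5 times the floor, no floor or a 1.5-fold limit, and 1 with 2 times the floor, the control floor, a 3-fold limit or the MB type alone. BMP targets lower by 2-fold were 0, against 1 with no floor and 2 at a 1.5-fold limit. The BMP median of 0.25 became 0.57 with 0.5 times the floor and on the first type alone, 0.48 at the control floor, 0.13 with no floor and -0.0043 without Id1, Id2 and Id3, the last chosen after the data were seen. TGF-beta targets higher by 2-fold were 4, against 7 at a 1.5-fold limit and 2 on either type alone or, chosen after the data were seen, without the immediate early genes. Those lower by 2-fold were 1, against 2 at a 1.5-fold limit and 0 with 2 times the floor, the control floor, a 3-fold limit or the MB type alone. The TGF-beta median of -0.02 became 0.0531 on the MB type alone.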
